A study of Mus musculus with 6 samples.

Results

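Collagen transcripts were examined in TKPTS cells, a mouse kidney proximal tubule line. The members were all genes of the deposited table whose symbol had the form of a collagen chain (Col, the type number, a, the chain number), which gave 40 of 29595 listed genes. The Hnf3a group held 3 libraries from cells transfected with pcDNA3.1-Hnf3a-Flag, a plasmid that carries Flag-tagged HNF3α (gene symbol Foxa1, a forkhead transcription factor). The pcDNA group held 3 libraries from cells given pcDNA3.1-Flag without the insert, labelled WT. All 6 libraries share the cell line, the vector and the tag, and the line in culture stands in for tubule epithelium. Nothing in the labels says that the replicates were separate cultures, so p-values measure only the spread between these libraries, which may be technical. The question was how the transcripts of collagens, of which collagen I was followed as a protein in the study, stood with and without added HNF3α. In TKPTS cells with added HNF3α, the study measured that protein after stimulation with TGF-β1. Its methods for the sequenced RNA name no TGF-β1.

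Collagens are secreted proteins in which 3 chains wind into a triple helix. Fibrillar collagens, such as types I, III and V, form the banded fibers of connective tissue and scars, and in the kidney they come mainly from fibroblasts and related interstitial cells. Type IV collagen forms the sheet-like network of basement membranes, on which tubule epithelium rests. Other types bind to fibrils, anchor the epithelium, span the cell membrane or form beaded filaments. The table held 11 fibrillar chains, 6 type IV chains and 23 others.

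Values are estimated counts, CPM (counts scaled to a library total of 1000000) or FPKM (the level per transcript length, as deposited). Where 3 values stand against 3 others, they are Hnf3a replicates 1, 2 and 3 followed by pcDNA replicates 1, 2 and 3. Total counts ran from 60473818 to 71154667 per library. More genes had 4 counts (1148 to 1203 per library) than 3 (661 to 694) or 5 (368 to 400), so 1 sequenced fragment was taken as worth about 4 counts. A chain was called above the floor in a library when it had more than 12 counts, about 3 fragments, which corresponds to 0.169 to 0.198 CPM and covers counting error only. The plasmid gene Foxa1 stood at 334.2, 295.5 and 284.2 FPKM in the Hnf3a libraries and at 9.49 to 9.96 FPKM in the pcDNA libraries. Of 17 listed kidney tubule markers, 14 or 15 were above the floor in every library, among them Cdh1, Epcam and Pax8. Levels of listed proximal tubule markers differed widely. Lrp2 had 17 to 53 counts per library, Cubn 27 to 58, Hnf4a 4 to 25, Slc5a2 at most 3 and Miox at most 4. Aqp1 had 162 to 235 counts and Gpx3 1003 to 1247.

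Nearly all of the collagen signal came from type IV collagen α1 and α2 and from type XVIII. Collagen transcripts together summed to 148.6 to 167.4 FPKM per library. Col4a1 and Col4a2, the network chains of most basement membranes, made up 70.1% to 75.7% of this sum, and Col18a1, a basement membrane collagen whose C-terminal fragment is endostatin, made up 21.3% to 23.7%. Fibrillar chains made up 0.225% to 0.256% of it in the pcDNA libraries and 0.235% in Hnf3a replicate 1, but 4.75% in Hnf3a replicate 2 and 5.89% in Hnf3a replicate 3.

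Across libraries, 15 of the 40 chains were above the floor in all 6, 18 in some and 7 in none. Of the 15, 12 were steady, meaning that the highest CPM was at most 2 times the lowest. The steady chains were Col4a1, Col4a2, Col4a4, Col4a5 and Col4a6 of type IV, Col2a1 and Col11a2 of the fibrillar types, and Col7a1, Col9a3, Col12a1, Col18a1 and Col25a1. Col27a1, Col15a1 and Col8a1 were in all 6 libraries but ranged over 2.35, 2.98 and 3.42 times. Col6a1, Col6a5, Col6a6, Col9a2, Col22a1, Col23a1 and Col26a1 never passed 12 counts. These classes were drawn from the measured counts and are a description.

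**Figure D1:**
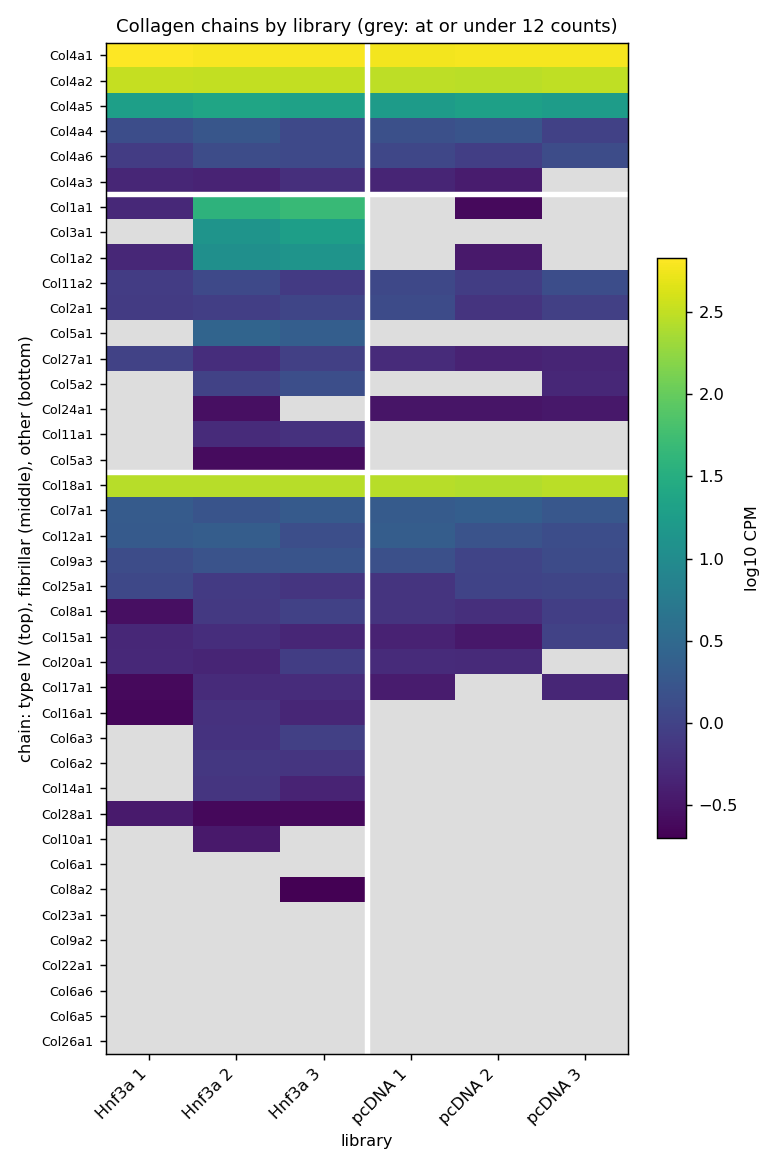
Heat map of the 40 collagen chains (rows, type IV at the top, fibrillar in the middle, other types at the bottom) in the 6 libraries (columns), coloured by log10 CPM, with grey for 12 counts or fewer. Hnf3a replicate 2 had 32 chains above the floor and Hnf3a replicate 3 had 31, against 22 in Hnf3a replicate 1 and 18 to 20 in the pcDNA libraries.

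The promoters of 4 chains are shown because they belong to the contrasting classes: Col1a2 and Col3a1, high in some libraries, and Col4a1 and Col4a2, steady in all. Each sequence is the RefSeq window of GRCm38.p6 from 250 bases before to 50 bases after the annotated start, written 5′ to 3′ on the strand of the gene. Windows were searched on both strands for 5 motifs. These were the forkhead letters TGTTTAC or the variant TGTTTGC, then the CCAAT box, the TATA box letters TATAAA and the GC box letters GGGCGG. Capitals mark each match, which is the reverse complement where the match lies on the other strand. No matches overlap in these windows.
Col1a2 (chr6:4505368-4505667, plus strand): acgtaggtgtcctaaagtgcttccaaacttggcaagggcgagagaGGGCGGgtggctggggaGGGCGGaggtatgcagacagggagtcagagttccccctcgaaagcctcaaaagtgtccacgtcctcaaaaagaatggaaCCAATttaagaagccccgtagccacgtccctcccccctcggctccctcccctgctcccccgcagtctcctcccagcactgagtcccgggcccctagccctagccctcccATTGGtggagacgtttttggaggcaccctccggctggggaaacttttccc
Col3a1 (chr1:45311288-45311587, plus strand): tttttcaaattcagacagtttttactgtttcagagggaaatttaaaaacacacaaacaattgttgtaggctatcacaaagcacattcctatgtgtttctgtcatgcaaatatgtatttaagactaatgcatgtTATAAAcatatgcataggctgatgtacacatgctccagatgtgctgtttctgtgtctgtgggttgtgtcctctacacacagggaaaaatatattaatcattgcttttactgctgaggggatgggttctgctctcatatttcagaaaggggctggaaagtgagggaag
Col4a1 (chr8:11312777-11313076, minus strand): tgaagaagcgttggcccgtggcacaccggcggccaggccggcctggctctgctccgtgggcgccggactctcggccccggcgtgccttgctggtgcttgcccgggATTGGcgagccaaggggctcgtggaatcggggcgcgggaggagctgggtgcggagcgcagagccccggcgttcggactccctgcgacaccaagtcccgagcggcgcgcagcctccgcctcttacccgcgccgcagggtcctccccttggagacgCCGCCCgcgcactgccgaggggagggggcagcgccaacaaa
Col4a2 (chr8:11312555-11312854, plus strand): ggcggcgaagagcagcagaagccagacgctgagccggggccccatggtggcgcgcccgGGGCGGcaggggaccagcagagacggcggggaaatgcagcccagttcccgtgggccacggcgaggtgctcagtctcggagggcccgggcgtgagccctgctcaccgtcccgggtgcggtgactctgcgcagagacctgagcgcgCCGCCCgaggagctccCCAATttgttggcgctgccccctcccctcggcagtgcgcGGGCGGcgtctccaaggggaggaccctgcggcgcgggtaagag
The windows of Col4a1 and Col4a2 overlap on opposite strands, since their annotated starts lie 21 bases apart. Their GC content was 74.0% and 73.7%, against 61.0% for Col1a2, 37.7% for Col3a1 and a median of 52.7% over all 32851 windows.

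A window was found for 31 of the 40 chains, 33 windows in all, and not for Col1a1, Col2a1, Col4a3, Col5a2, Col9a3, Col12a1, Col14a1, Col22a1 and Col26a1. GGGCGG occurred in 22 of the 33 windows (66.7%) and in 35.7% of all windows. CCAAT occurred in 33.3% of the collagen windows and 37.4% of all, and TATAAA in 12.1% and 13.6%. The forkhead letters TGTTTAC were found in 1 collagen window (3.03%), that of Col6a1, and in 3.65% of all windows, and TGTTTGC in 0 of 33 and in 5.07% of all. These matches describe the letters in the windows only.

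Col4a1 and Col4a2 were the most abundant chains and varied little between libraries. Col4a1 (ENSMUSG00000031502; mm10 chromosome 8, 11198423 to 11312826, minus strand, 52 exons in its longest GENCODE transcript) had 43619, 44579 and 40815 counts against 35610, 38996 and 39837. Per length these were 80.4, 75.4 and 74.4 FPKM against 70.6, 71.2 and 73.2. Every Hnf3a value lay above every pcDNA value, with Hnf3a replicate 1 the highest and Hnf3a replicate 3 close to pcDNA replicate 3. The group means were 76.7 ± 3.23 and 71.7 ± 1.38 FPKM (SD, n = 3 each). The difference on the log2 scale was 0.090 (standard error 0.034, 95% interval 0.018 to 0.16) and missed the threshold of 0.05 over all genes tested (edgeR's quasi-likelihood test with Benjamini-Hochberg adjustment, adjusted p 0.231).

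Col4a2 (chromosome 8, 11312805 to 11449287, plus strand, 48 exons) is the partner chain that assembles with α1. It stood at 44.95, 43.1 and 42.4 FPKM against 40.8, 39.2 and 42.1. As for Col4a1, the groups did not overlap and Hnf3a replicate 1 was the highest. The estimate was 0.088 on the log2 scale (95% interval 0.011 to 0.16, edgeR adjusted p 0.279), and the ratio of Col4a1 to Col4a2 FPKM stayed between 1.73 and 1.82 in the 6 libraries.

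The remaining type IV chains were far lower. Col4a5, a network chain of glomerular and some tubular basement membranes, had 1266, 1683 and 1347 counts against 1039, 1338 and 1145, or 2.82 ± 0.297 and 2.44 ± 0.233 FPKM (SD, n = 3 each). Its groups overlapped (log2 fold change 0.20, standard error 0.087, edgeR adjusted p 0.329). Col4a6, which assembles with Col4a5, had 54, 92 and 78 counts against 67, 59 and 85, Col4a4 had 89, 123 and 77 counts against 88, 107 and 63, and Col4a3 had 31, 32 and 39 counts against 28, 24 and 12. These 3 chains stood at 0.145 FPKM or less in each library, their groups overlapped, and their edgeR adjusted p ran from 0.656 to 0.996.

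The 6 type IV genes lie in 3 head-to-head pairs. By the table's coordinates, the first bases of Col4a4 and Col4a3 are 72 bases apart on chromosome 1, and those of Col4a6 and Col4a5 are 1309 bases apart on chromosome X. Members of a pair differed in level: Col4a5 stood 16.2 to 28.2 times above Col4a6 in FPKM, and Col4a4 stood above Col4a3 in each of the 5 libraries where both passed the floor, by 1.84 times in Hnf3a replicate 3 at the least.

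**Figure D2:**
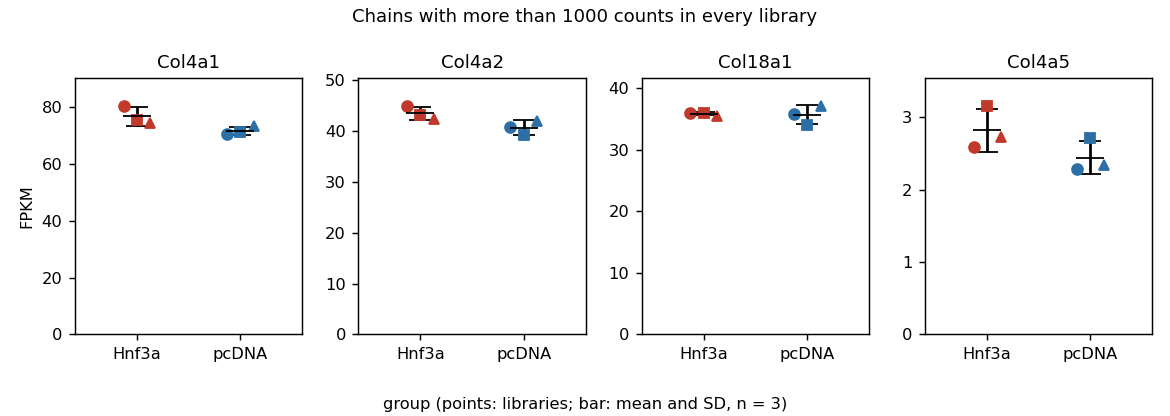
FPKM of Col4a1, Col4a2, Col18a1 and Col4a5, the 4 chains of highest mean FPKM, by group; points are libraries (circle, square and triangle for replicates 1, 2 and 3) and bars give the mean and SD (n = 3). Each axis starts at 0 and has its own scale, and of the 4 chains Col4a1 and Col4a2 show groups that do not overlap.

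Col18a1 was nearly level across the libraries, at 35.9, 35.9 and 35.5 FPKM against 35.8, 34.0 and 37.1. The pcDNA libraries enclosed all Hnf3a values. The difference was -0.0025 on the log2 scale with a 95% interval of -0.077 to 0.072 (edgeR adjusted p 0.990).

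Of the 11 fibrillar chains, 7 were highest in Hnf3a replicates 2 and 3. Col1a1 (ENSMUSG00000001506; chromosome 11, 94936224 to 94953042, plus strand, 51 exons) encodes the α1 chain of type I collagen, the main collagen of scars. It had 33, 2694 and 3099 counts against 0, 16 and 5, and per length 0.0633, 5.18 and 6.42 FPKM against 0, 0.0324 and 0.0103. Hnf3a replicates 2 and 3 stood far above every other library, and Hnf3a replicate 1 lay only just above pcDNA replicate 2. The fitted difference was 7.99 on the log2 scale with a standard error of 2.37 and a 95% interval of 1.504 to 14.48, and it missed the threshold (edgeR adjusted p 0.273).

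Col1a2 (chromosome 6, 4504814 to 4541544, plus strand, 52 exons), the α2 chain of the same trimer, had 32, 815 and 878 counts against 4, 23 and 4. Hnf3a replicates 2 and 3 were again the highest, and replicate 1 was again close to pcDNA replicate 2 (log2 fold change 5.68, standard error 1.68, edgeR adjusted p 0.272). Col1a1 stood 6.27 and 6.69 times above Col1a2 in FPKM in Hnf3a replicates 2 and 3. Elsewhere both passed the floor only in Hnf3a replicate 1 (1.89 times) and pcDNA replicate 2 (1.31 times), from few fragments.

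Col3a1 (chromosome 1, 45311538 to 45349706, plus strand, 51 exons) encodes type III collagen, which is laid down with type I in extensible tissue and early scars. It had 7, 935 and 1240 counts against 4, 11 and 0, so Hnf3a replicate 1 fell within the pcDNA range, under the floor (log2 fold change 7.05, standard error 2.29, edgeR adjusted p 0.313). In Hnf3a replicates 2 and 3 Col1a1 stood 4.32 and 3.74 times above Col3a1 in FPKM. The fitted values of Col3a1 and Col5a1, whose pcDNA libraries were all at or under the floor, depend on the prior count and are no bounds.

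Type V chains, which start and limit type I fibrils, were also highest in Hnf3a replicates 2 and 3. Col5a1 had 0, 191 and 148 counts against 9, 5 and 10, and Col5a2, the neighbor of Col3a1 on chromosome 1, had 0, 71 and 93 counts against 7, 9 and 32. In both, Hnf3a replicate 1 was the lowest of the 6 libraries. Their edgeR adjusted p was 0.472 and 0.721, and Col5a3, with 3, 18 and 17 counts against 0, 0 and 0, did not pass the low-count filter. Col1a1, Col1a2, Col3a1, Col5a1 and Col5a2 together summed to 1.11, 66.1 and 83.4 CPM against 0.397, 0.973 and 0.781 CPM.

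The other fibrillar chains showed no such split, apart from Col11a1. Col11a1, a chain of cartilage and other fibrils, had 5, 38 and 41 counts against 0, 0 and 4. Its partner Col11a2 had 55, 84 and 52 counts against 70, 58 and 88, and Col2a1, the cartilage collagen, had 53, 63 and 71 counts against 76, 45 and 61, with overlapping groups in both. Col27a1 had 65, 41 and 61 counts against 33, 28 and 30, with all Hnf3a libraries above all pcDNA libraries (log2 fold change 0.80, standard error 0.34, edgeR adjusted p 0.312). Col24a1 was the single tested chain with every Hnf3a library below every pcDNA library in CPM, at 12, 20 and 6 counts against 19, 21 and 22, all within a few fragments of the floor (log2 fold change -0.80, standard error 0.55, edgeR adjusted p 0.609).

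**Figure D3:**
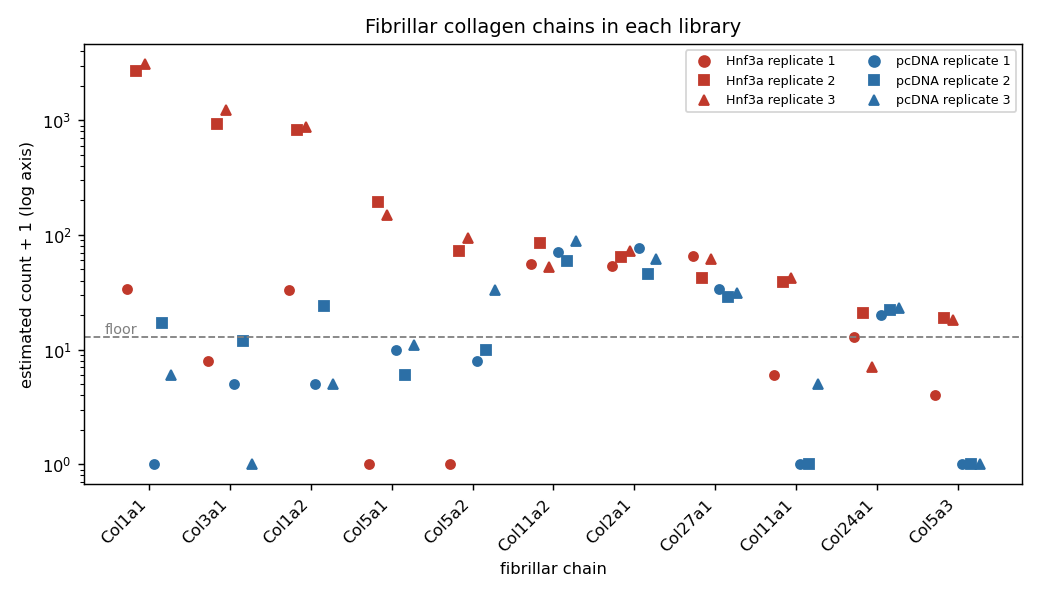
Estimated count plus 1 on a log axis for the 11 fibrillar chains, with red for Hnf3a and blue for pcDNA libraries, circle, square and triangle for replicates 1, 2 and 3, and the floor of 12 counts as a dashed line. Hnf3a replicates 2 and 3 stand above the other 4 libraries for Col1a1, Col3a1, Col1a2, Col5a1, Col5a2, Col11a1 and Col5a3, and not for Col11a2, Col2a1, Col27a1 and Col24a1.

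Several non-fibrillar chains were also above the floor in these 2 libraries alone. Type VI collagen forms beaded filaments around cells, and of its chains Col6a3 had 0, 46 and 61 counts against 0, 0 and 0 and Col6a2 had 3, 52 and 46 counts against 4, 0 and 0. Col6a1, the chain they assemble with, had 8, 11 and 8 counts against 6, 0 and 0 and stayed under the floor, as did Col6a5 and Col6a6, with at most 8 counts. Col14a1, which decorates type I fibrils, had 6, 49 and 29 counts against 0, 0 and 8. In all, 7 of 40 chains (17.5%), Col3a1, Col5a1, Col5a3, Col6a2, Col6a3, Col11a1 and Col14a1, passed 12 counts in both Hnf3a replicates 2 and 3 but in no other library, compared with 225 of all 29595 listed genes (0.760%). Col1a1, Col1a2 and Col5a2 each also passed the floor in at least 1 other library.

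Among the remaining chains, Col7a1 of the anchoring fibrils had 135, 118 and 129 counts against 122, 147 and 118, and Col12a1, a fibril-associated chain, ranged from 90 to 157 counts. Col9a3 had 85, 114 and 109 counts against 88, 70 and 82. The edgeR adjusted p of these 3 chains ran from 0.703 to 0.906. Col16a1, another fibril-associated chain, had 15, 45 and 31 counts against 12, 12 and 12 (log2 fold change 1.23, standard error 0.51, edgeR adjusted p 0.294), and Col28a1 had 23, 17 and 16 counts against 1, 11 and 3 (log2 fold change 1.81, standard error 0.74, edgeR adjusted p 0.289), without overlap of the groups in either. The pcDNA libraries of both chains were all at or under the floor, so these fitted values, too, depend on the prior count and are no bounds. Of the membrane-spanning chains, Col17a1 of hemidesmosomes had 16, 39 and 37 counts against 22, 11 and 31 and Col25a1 had 76, 57 and 45 counts against 41, 67 and 70, with overlapping groups. Col8a1, a short chain of vessel walls and of the cornea, had 18, 54 and 62 counts against 41, 39 and 58, so that Hnf3a replicate 1 was the lowest library. Col15a1, the other multiplexin beside Col18a1, ranged from 22 to 65 counts, Col20a1 from 10 to 57, Col10a1 from 0 to 25 and Col8a2 from 0 to 13.

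No collagen chain passed the test across all genes. Of the 40 chains, 26 passed the filter on low counts, and 0 of these 26 had an adjusted p under 0.05 in edgeR, where 3.17% of all 17824 tested genes did (1.04% higher and 2.13% lower). At an unadjusted p under 0.05 the count was 9 of 26, against 13.5% of all tested genes. The DESeq2 Wald test called 3 chains, Col1a1, Col1a2 and Col3a1, all higher (background 4.91%, of it 1.92% higher), and limma on log2(FPKM + 0.1) called 0. Over the 26 chains the median log2 fold change was 0.16, against 0.00085 over all tested genes, and also 0.16 with the 4 chains whose pcDNA libraries were all at or under the floor set to the bound that the floor gives. It was 1.68 over the 9 tested fibrillar chains, also with Col3a1 and Col5a1 at that bound, 0.089 over the 6 type IV chains and 0.13 over the 11 others, also with Col16a1 and Col28a1 at it. The groups did not overlap in 7 chains with Hnf3a above (Col1a1, Col1a2, Col4a1, Col4a2, Col16a1, Col27a1 and Col28a1) and in 1 with Hnf3a below, where the background was 10.8% and 8.34%. Chains present in some libraries passed the filter through the libraries where they were high, so these counts describe the 26 and not all members.

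The count of calls depended on Hnf3a replicate 1. Without it, 9 of 32 tested chains had an edgeR adjusted p under 0.05, all higher, where 3.47% of all tested genes were called and 1.36% were called higher. They were Col1a1, Col1a2, Col3a1, Col5a1, Col5a2, Col5a3, Col6a2, Col6a3 and Col11a1, with edgeR adjusted p from 1.42e-05 (Col5a1) to 0.0391 (Col5a3). This fit keeps only the Hnf3a libraries in which these chains were high, and Col5a3, Col6a2, Col6a3 and Col11a1 passed its filter through them. The calls therefore restate the split between the Hnf3a libraries and are no separate test of it. Without Hnf3a replicates 2 and 3, which leaves 1 library that is assumed to vary like the pcDNA libraries, Col1a1 differed by 2.22 on the log2 scale (edgeR adjusted p 0.498) and Col3a1 by 0.45 (edgeR adjusted p 0.952). Col4a1 was then the only chain called, at 0.17 on the log2 scale (edgeR adjusted p 0.0241; background 1.67%, of it 0.468% higher). With no filter beyond 1 count in all 6 libraries together, Col11a1 alone was called, higher (background 1.97%, of it 0.733% higher).

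**Figure D4:**
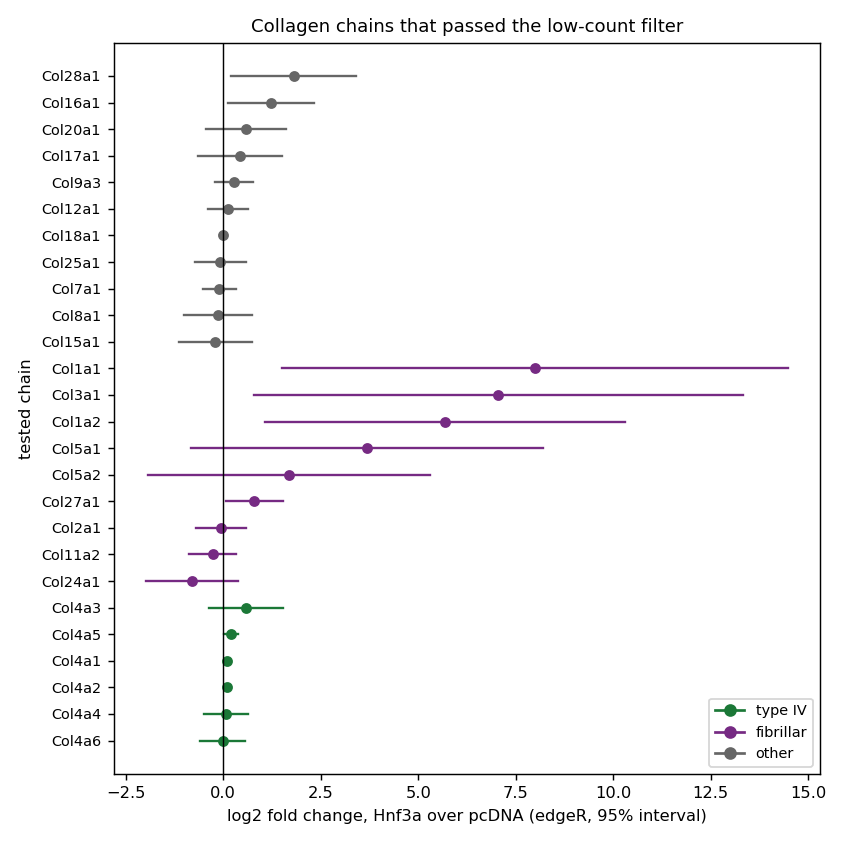
Log2 fold change of Hnf3a over pcDNA with its 95% interval (edgeR) for the 26 tested chains, coloured by class. The interval of Col4a1 runs from 0.018 to 0.16 and that of Col18a1 from -0.077 to 0.072, while those of Col1a1 (1.504 to 14.48) and Col5a2 (-1.93 to 5.29) are far wider.

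Some markers of cells other than tubule epithelium were highest in Hnf3a replicates 2 and 3, as Col1a1 and Col3a1 were. Of 14 fibroblast markers listed, 13 and 11 passed the floor in Hnf3a replicates 2 and 3, against 6 in Hnf3a replicate 1 and 5, 5 and 6 in the pcDNA libraries. Over all 29595 listed genes, 17588 and 17350 passed it in Hnf3a replicates 2 and 3, and 16789 to 16980 in the other libraries. Acta2, the smooth muscle actin of myofibroblasts, had 8, 92 and 96 counts against 4, 7 and 0, and Lum, a fibril-binding proteoglycan, had 0, 21 and 18 counts against 0, 4 and 0. Others on the list showed no such split. Fap had 68, 64 and 43 counts against 50, 36 and 33, and Twist2 had 75, 72 and 62 counts against 45, 47 and 77. The summed level of the fibroblast list was 23.1 to 26.1 CPM in the Hnf3a group and 17.3 to 19.0 CPM in the pcDNA group, most of it from Tagln and Fbln1, which were present in every library. Of the 8 fibroblast markers tested, 0 had an edgeR adjusted p under 0.05 (3.17% of all tested genes). At an unadjusted p under 0.05 there were 4, Fbln1, Tagln, Pdgfra and Dcn (13.5% of all tested genes). Pdgfra had 13, 38 and 16 counts against 4, 8 and 10, and Dcn had 8, 46 and 40 against 8, 0 and 14. These last 2 passed the low-count filter mainly through Hnf3a libraries, so the counts describe the 8 tested markers and not the list.

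Some macrophage and skeletal muscle markers split the libraries in the same way, and others, such as Cd68 and Tnnc2, did not. All 12 macrophage markers passed the floor in Hnf3a replicates 2 and 3 and 4 or 5 did in each other library, and C1qb, a complement subunit, had 0, 57 and 75 counts against 0, 10 and 0. The summed macrophage level was lower in the Hnf3a group (70.6 to 82.9 CPM) than in the pcDNA group (93.2 to 101.6 CPM). Most of it came from Cd14, which was present in every library and fell (log2 fold change -0.69, standard error 0.051, edgeR adjusted p 2.63e-06). Of 10 skeletal muscle markers, 9 passed the floor in each of Hnf3a replicates 2 and 3 and 5 in each other library. Myh1, a fast muscle myosin, had 0, 147 and 171 counts against 0, 0 and 0, and Tnnt3, a fast muscle troponin, had 0, 63 and 30 counts against 0, 0 and 0. The summed muscle level was 36.0, 45.1 and 46.1 CPM against 28.8, 27.5 and 28.1 CPM, most of it from Tnnc2, which rose (log2 fold change 0.44, standard error 0.055, edgeR adjusted p 0.000378).

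The bone, cartilage, endothelial and red blood cell lists were counted in the same way. Of 9 bone markers 3 passed the floor in every library, with Ibsp, Dmp1, Bglap and Sp7 at 10 counts or fewer, and of 7 cartilage markers 1 or 2 did. The bone sum was 732.1 to 804.4 CPM against 642.9 to 684.4 CPM, nearly all of it from Spp1, which tubule cells also make and which rose (log2 fold change 0.21, standard error 0.036, edgeR adjusted p 0.00419), while Alpl fell (log2 fold change -1.13, standard error 0.15, edgeR adjusted p 0.000535). The cartilage sum was 19.9 to 26.5 CPM against 20.7 to 25.2 CPM. Of 9 endothelial markers 4 to 7 passed the floor, with a sum of 9.87 to 11.1 CPM against 10.75 to 13.04 CPM. In edgeR 1 of the 7 tested rose and 1 fell, against 1.04% and 2.13% of all tested genes. Tek, the angiopoietin receptor, had 11, 15 and 16 counts against 0, 0 and 0 (edgeR adjusted p 0.0194, past the threshold in 3 of 13 alternative fits). It passed the floor in Hnf3a replicates 2 and 3 alone. Tek reached the test only through the Hnf3a libraries, so its call describes these few fragments and is no separate support. Cdh5 fell (log2 fold change -1.23, standard error 0.17, edgeR adjusted p 0.000821). Of 5 red blood cell markers 3 passed the floor in Hnf3a replicates 2 and 3, 4 in pcDNA replicate 2 and 0 or 1 in the others. Their sum was 0.770 to 1.53 CPM against 0.0612 to 1.37 CPM. Kidney tubule markers summed to 1973 to 2025 CPM against 1880 to 1902 CPM. Of the 15 tested, 2 rose and 0 fell in edgeR, against 1.04% and 2.13% of all tested genes. They were Krt18 (log2 fold change 0.20, edgeR adjusted p 0.00148) and Cdh2 (log2 fold change 0.26, edgeR adjusted p 0.0468). The groups did not overlap in 7 of the 15 with Hnf3a above and in 1 with Hnf3a below, where the background was 10.8% and 8.34%. In bulk RNA, fewer cells of a type and less RNA per cell cannot be told apart. The part of RNA from other cell types in the fibrillar counts of Hnf3a replicates 2 and 3 was not tested.

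**Figure D5:**
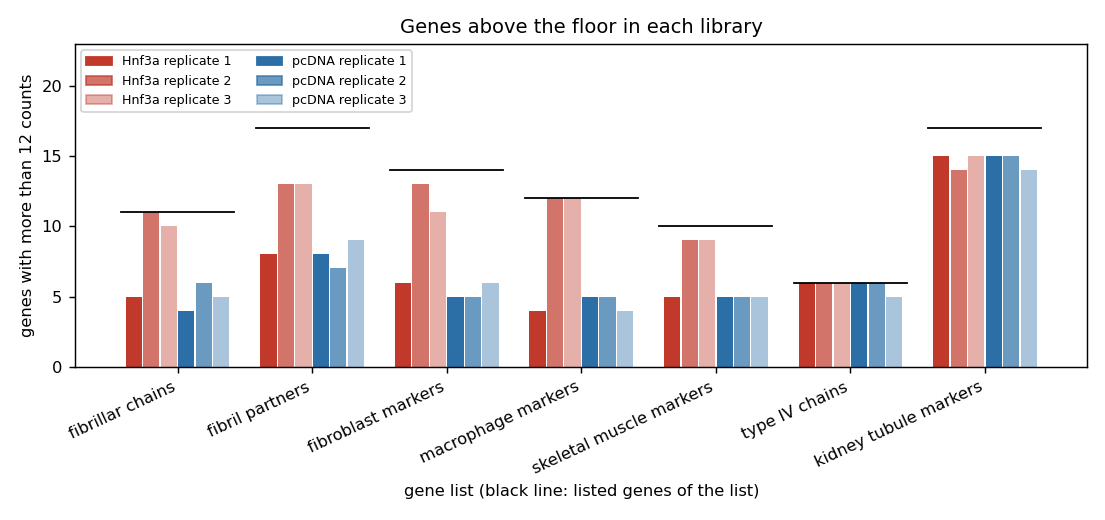
Number of genes with more than 12 counts in each library (bars, red for Hnf3a and blue for pcDNA, paler from replicate 1 to 3) for 7 gene lists, with a black line at the number of listed genes. Fibrillar chains, fibril partners and the fibroblast, macrophage and muscle markers have their 2 tallest bars in Hnf3a replicates 2 and 3, while type IV chains (5 or 6) and kidney tubule markers (14 or 15) are near level.

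The genes that make, cut, link and bind collagen were followed in 4 lists with 63 listed genes, of which 50 were tested. In edgeR 9 had an adjusted p under 0.05, 5 higher and 4 lower, against 1.04% and 2.13% of all tested genes, and the median log2 fold change over the 50 was 0.11. The 5 higher calls were 0 in the 3 limma fits and without Hnf3a replicate 2 or pcDNA replicate 2, 1 without pcDNA replicate 1 or 3, and 9 without Hnf3a replicate 1. Of 24 hydroxylation and folding genes 21 were above the floor in all 6 libraries, among them Serpinh1, the collagen chaperone, and P4hb, the shared subunit of prolyl 4-hydroxylase.

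Of the 22 tested hydroxylation and folding genes 1 rose and 2 fell, against 1.04% and 2.13% of all tested genes, with a median of 0.062. P3h2, a prolyl 3-hydroxylase that acts on type IV collagen, fell from 9.20 ± 0.581 to 7.22 ± 0.293 FPKM (SD, n = 3 each; log2 fold change -0.36, standard error 0.059, edgeR adjusted p 0.00342). P4ha2, a catalytic subunit of prolyl 4-hydroxylase, fell from 8.14 ± 0.457 to 6.95 ± 0.0614 FPKM (log2 fold change -0.23, standard error 0.048, edgeR adjusted p 0.0149). Sparc, a collagen-binding matrix protein, rose from 12.35 ± 0.632 to 15.0 ± 0.967 FPKM (log2 fold change 0.27, standard error 0.053, edgeR adjusted p 0.0113). P3h2 passed the threshold in 16 of 17 alternative fits, P4ha2 in 10 of 17 and Sparc in 10 of 17. Serpinh1 had a difference of 0.10 on the log2 scale (edgeR adjusted p 0.188).

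Of 9 tested genes for cleavage and crosslinking 1 rose and 0 fell, against 1.04% and 2.13% of all tested genes, with a median of 0.17. The 1 past the threshold was Pcolce, which enhances removal of the procollagen C-terminus. It stood at 3.85 ± 0.349 against 3.00 ± 0.0772 FPKM (SD, n = 3 each, log2 fold change 0.35, standard error 0.082, edgeR adjusted p 0.034, past the threshold in 7 of 17 alternative fits). Loxl1, a crosslinking enzyme of elastic fibers, had 7, 50 and 66 counts against 18, 17 and 16 (edgeR adjusted p 0.452), and the procollagen N-proteinase Adamts2 had 11, 27 and 39 counts against 4, 4 and 19 (edgeR adjusted p 0.407). Both were highest in Hnf3a replicates 2 and 3.

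Among the collagen-binding integrin α chains, Itga1 and Itga2 fell. Itga1, which prefers type IV collagen, had 5890, 6542 and 5372 counts against 7616, 8285 and 8211, without overlap (log2 fold change -0.52, standard error 0.044, edgeR adjusted p 8.71e-06). Itga2, which prefers type I, had 4387, 4490 and 3840 counts against 5798, 6678 and 5640, also without overlap (log2 fold change -0.59, standard error 0.065, edgeR adjusted p 0.000378). Both passed the threshold in all 17 alternative fits. Itga10 had 178, 141 and 159 counts against 130, 94 and 136 (edgeR adjusted p 0.585), and Itga11 had 7, 24 and 19 counts against 18, 7 and 7 (edgeR adjusted p 0.831), with overlapping groups in both. Itgb1, their common β chain, had a log2 fold change of 0.073 (edgeR adjusted p 0.265), and the receptor kinase Ddr1 one of -0.073 (edgeR adjusted p 0.406). Adgrg1, a receptor for type III collagen, rose (log2 fold change 0.17, standard error 0.037, edgeR adjusted p 0.021; 9 of 17 alternative fits). Of the 10 tested receptors 1 rose and 2 fell, against 1.04% and 2.13% of all tested genes, and their median was 0.089.

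Some partners that sit on fibrils repeated the split among Hnf3a libraries. Bgn, the proteoglycan biglycan, had 30, 528 and 613 counts against 26, 33 and 15 (edgeR adjusted p 0.323), and Postn, periostin, had 6, 48 and 42 counts against 5, 0 and 0. Of 17 fibril partners, 13 were above the floor in each of Hnf3a replicates 2 and 3 and 7 to 9 in the others, and 5 of the 17 are also on the fibroblast list. Fn1, fibronectin, was high in every library, at 104.0, 96.0 and 80.7 FPKM against 85.7, 85.2 and 87.0, with overlapping groups (edgeR adjusted p 0.747). Of 9 tested partners, Tnc, tenascin C, rose (log2 fold change 0.28, standard error 0.052, edgeR adjusted p 0.00955; 11 of 17 alternative fits), as did Thbs1, thrombospondin 1 (log2 fold change 0.23, standard error 0.053, edgeR adjusted p 0.0413; 8 of 17). In all 2 of the 9 rose and 0 fell, against 1.04% and 2.13% of all tested genes, and their median was 0.28.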

How the data were processed

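RNA from 6 libraries of TKPTS cells, 3 per group, was sequenced from both ends with 150 bases per read. Groups and replicate numbers came from the sample titles. The authors deposited 1 table with an estimated count, a whole number, and an FPKM value per gene and library. The submitters' processing notes name mm10, cutadapt 1.9, HISAT2 2.0.4, UMI-tools, StringTie 1.3.4d, DESeq2 and edgeR, with no roles. The annotation, strand use and duplicate removal are not given in the sources used here, so reads of the 25 chains that another annotated gene overlaps (14 on the same strand) are less certain, Col4a1 and Col4a2 among them. For 35 of the 40 chains the coordinates equalled those of GENCODE vM21.

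Genes kept by filterByExpr were scaled by TMM. Groups were compared in edgeR 4.0.16 under R 4.3.3, with robust dispersion and quasi-likelihood fits and no further term. Benjamini-Hochberg adjustment covered the 17824 genes kept, and the test was two-sided. The standard error was taken as the size of the fold change on the log2 scale over the root of the F statistic. The code was tested on simulated data. Alternatives used DESeq2 1.42.0 and limma 3.58.1, other filters, scalings and pseudocounts, the replicate block and fits without single libraries; the number of alternative fits given for a gene counts those in which it was tested.

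Values by library are given for types I, III, IV, V and VI, for the 3 chains of highest mean FPKM in each class, and for chains above the floor in some libraries with at least 100 counts in 1. From the assembly lists, genes past the threshold are named, and of the 4 of smallest p among the rest some are named, picked after their values were seen. Other named chains, Fn1, Postn, P4hb and the cell type markers were chosen after their values were seen. The members, lists and alternatives were chosen with earlier results of these data known. Col6a4, Col9a1, Col13a1, Col19a1 and protein sequences were not analysed here.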

Additional observations from a re-analysis of the deposited data

How the results depend on the processing

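Outside the fits that leave out libraries, the number of collagen chains called, 0 as reported, was 1 (higher) with all genes of at least 1 count and with the replicate block, 3 (higher) in the DESeq2 Wald test, and 0 in the others. Leaving out 1 library gave 0 to 9, all higher, with 9 only without Hnf3a replicate 1, and 0 lower in every fit. Without Hnf3a replicates 2 and 3 it was 1, higher. The assembly genes called, 9 as reported (5 higher, 4 lower), were 3 (0 higher) under limma on log2 FPKM with a pseudocount of 0.1, 1 or 0.01, 2 higher with the replicate block, 2 lower without Hnf3a replicates 2 and 3, and 3 to 13 (0 to 9 higher, 3 or 4 lower) when 1 library was left out, with 13 without Hnf3a replicate 1. They were 3 without Hnf3a replicate 2, and 4 without pcDNA replicate 1, 2 or 3. With a floor of 4 counts 1 chain was under the floor everywhere, with 40 counts 14 were, and with a steadiness limit of 1.5 times 5 chains were steady. The cause was not tested.

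Some log2 fold changes, none of them past the threshold as reported, changed sign. Col4a6 (-0.0059) was 0.0061 under total-count scaling, 0.0048, 0.0014 and 0.0041 in the limma fits with 0.1, 1 and 0.01, and 0.020 with counts divided by 4. Col18a1 (-0.0025) was 0.0012 with all genes, 0.0031 with at least 1 FPKM in 3 libraries, 0.0092 under total-count scaling, 0.0066, 0.0064 and 0.0066 in those limma fits, and 0.011 without Hnf3a replicates 2 and 3. Col2a1 was 0.0040 in limma with 0.01. Without Hnf3a replicates 2 and 3, Col5a2 was -7.00, Col7a1 0.038, Col17a1 -0.44 and Col25a1 0.34. The Col5a2 value comes from 0 counts in Hnf3a replicate 1 against 7, 9 and 32, so it depends on the prior count and is no bound. Leaving out 1 library moved Col4a4 between -0.12 and 0.23, Col4a6 between -0.13 and 0.16, Col2a1 between -0.25 and 0.19, Col12a1 between -0.0096 and 0.33, Col15a1 between -0.48 and 0.42, Col18a1 between -0.035 and 0.027, Col8a1 between -0.47 and 0.23 and Col25a1 between -0.33 and 0.085.

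Nothing in the labels says that the replicate numbers pair the libraries. Deviations from the group means correlated at -0.041, -0.010 and 0.010 over the 3 same-numbered pairs. These values show no strong shared effect, but they cannot show whether same-numbered libraries were prepared together. In the replicate block 463 genes were called of 17824, against 565, and Col1a1 was the chain called (adjusted p 2.27e-06).

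Depth limits the low chains, where 12 counts are about 3 fragments: 14 chains did not pass the filter and have no value in the reported test.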
